A study of Homo sapiens with 4 samples.

Results

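The 10 genes described here encode secreted cues, receptors and one cytoskeletal protein of the axon guidance system. They are the Slit ligands SLIT2 and SLIT3, the Slit receptor ROBO1, the class 3 semaphorins SEMA3A and SEMA3C, the plexin PLXNA2, the neuropilins NRP1 and NRP2, the netrin NTN4 and the neuron navigator NAV3. A probe set, the group of short probes that measures a transcript on an Affymetrix array, was taken as a member if its annotation named 1 gene and that gene was among the 10. This gave 36 of the 54613 probe sets that are not array controls, and 10 of 19775 genes. Each gene is represented by its brightest probe set, the 1 with the highest mean intensity over the 4 arrays, and its other probe sets are given beside it.

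RNA came from MCF10A, an immortalized, non-tumorigenic human mammary epithelial line, infected with retrovirus and hybridized to 1 array per group. The vector group carried the empty pQCXIH retroviral vector. The YAP-WT, YAP-S94A and YAP-W1W2 groups carried the same vector with wild-type YAP, with YAP changed in the region that binds TEAD transcription factors, or with YAP altered in its pair of WW domains, modules for binding proline-rich motifs. All 4 groups grew in the same medium with horse serum, EGF, hydrocortisone, insulin and cholera toxin, and the species of the introduced YAP is not named in the labels. Whether the infected cells were pools or clones, and how long they were grown, is not given in the sources used here. Each group has a single array, so no difference has a replicate check, and none was tested.

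Slits are secreted proteins that bind Robo receptors and repel or stop migrating growth cones and cells. Class 3 semaphorins are secreted and act through a neuropilin, which binds the ligand, and a type A plexin, which carries the signal to the cytoskeleton. Netrin-4 is a laminin-related protein of basement membranes, and NAV3 is a microtubule plus-end protein. In the mammary gland Slit and Robo genes take part in duct branching and in the adhesion between the basal and luminal layers, and neuropilins also bind VEGF family growth factors.

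Promoter sequence is shown for SLIT2, NAV3 and SEMA3C because these 3 members had the widest range of intensity over the 4 arrays. The reference table from RefSeq (GRCh38.p14) held start sites for 8 of the 10 members, 12 windows in all, each from 250 bases before to 50 after the start. NRP1 and SEMA3A were not matched. The lines give the 250 bases before each start, 5′ to 3′ on the gene's strand, and capitals mark matches to a TATA box (TATANAA) or a GC box (GGGCGG) on either strand. The NTN4 line instead gives 30 bases after its first start, with a match to the TEAD core CATTCC in capitals, because it was the only match to that motif in the 12 windows.
SLIT2, chr4:20251655-20251904, plus strand: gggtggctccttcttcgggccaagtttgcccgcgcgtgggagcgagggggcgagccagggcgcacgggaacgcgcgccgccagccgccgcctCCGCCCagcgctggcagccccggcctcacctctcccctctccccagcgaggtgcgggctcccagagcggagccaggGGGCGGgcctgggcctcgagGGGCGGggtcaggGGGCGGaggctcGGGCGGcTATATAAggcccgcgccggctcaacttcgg
NAV3 first start, chr12:77830644-77830893, plus strand: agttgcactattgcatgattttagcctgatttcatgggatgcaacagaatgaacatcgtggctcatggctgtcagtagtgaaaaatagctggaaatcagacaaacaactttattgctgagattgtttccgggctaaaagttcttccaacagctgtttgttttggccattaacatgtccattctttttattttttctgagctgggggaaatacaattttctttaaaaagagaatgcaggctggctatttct
NAV3 second start, chr12:78036364-78036613, plus strand: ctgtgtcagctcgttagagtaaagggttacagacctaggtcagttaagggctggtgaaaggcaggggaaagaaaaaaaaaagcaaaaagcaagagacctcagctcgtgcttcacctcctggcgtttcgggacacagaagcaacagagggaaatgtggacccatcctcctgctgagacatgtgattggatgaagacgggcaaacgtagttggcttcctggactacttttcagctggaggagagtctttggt
SEMA3C first start, chr7:80922390-80922639, minus strand: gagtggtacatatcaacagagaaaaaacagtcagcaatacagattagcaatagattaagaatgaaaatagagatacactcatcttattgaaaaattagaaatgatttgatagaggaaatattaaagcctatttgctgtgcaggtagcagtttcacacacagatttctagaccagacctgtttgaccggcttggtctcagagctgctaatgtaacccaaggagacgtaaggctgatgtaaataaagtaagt
SEMA3C second start, chr7:80919052-80919301, minus strand: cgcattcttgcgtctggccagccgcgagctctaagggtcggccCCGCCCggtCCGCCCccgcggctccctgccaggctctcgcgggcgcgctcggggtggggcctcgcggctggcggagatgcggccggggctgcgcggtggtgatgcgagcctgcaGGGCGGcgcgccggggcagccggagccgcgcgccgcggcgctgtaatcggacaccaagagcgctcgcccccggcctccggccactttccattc
NTN4 first start, chr12:95791112-95791141, minus strand: ctactgctcttaGGAATGttccgggagaag

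The SLIT2 window held a TATA box match at positions -30 to -24 relative to the start and 5 GC box matches, of which the nearest lay at -37 to -32. Its GC content was 77.2%, against a median of 58.0% over 35116 windows. The NAV3 windows, at 38.0% and 49.6% GC, held none of the motifs searched. The second SEMA3C window (77.6% GC) held 3 GC boxes and the first (36.4% GC) none. The TEAD core, searched as CATTCC on both strands, matched 1 of the 12 member windows, at positions 27 to 32 after the first NTN4 start, and 14.0% of all windows. The AP-1 element TGANTCA matched none of the 12 and 7.71% of all windows. A TATA box matched 1 of 12 and 9.10% of all, and a GC box 6 of 12 and 45.0% of all. The TATA and GC box motifs were added after the sequences were read, and none of the matches printed above overlapped another. These matches describe letters in short windows and say nothing about binding there or at distant enhancers.

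The array medians lay between 112.3 and 116.2 intensity units. Intensities below 72.9, the 40th percentile over the 4 arrays, were set to that floor. Where 1 of the arrays compared was at the floor, the fold is a bound, written as at least. Of the 36 member probe sets, 27 exceeded the floor on at least 1 array and 9 on none. All 10 members had a mean intensity above 113.6, the median over probe sets, but NAV3 and SLIT3 passed this through the arrays that carry YAP, and NAV3 and SEMA3A each had 1 array at the floor. Genes above that median are called measured. The 7 epithelial marker genes with a probe set of 1 symbol, among them KRT5, KRT14 and CDH1, were above the floor on every array, with summed intensities of 85778 to 137450. Their profile differed between arrays: KRT5 stayed within 30482 to 33856, while the luminal keratin KRT18 read 5609 on the vector array, 16990 on YAP-WT, 18123 on YAP-S94A and 34605 on YAP-W1W2. KRT8 went from 3845 with vector to 16277 with YAP-W1W2, and EPCAM from 578.2 to 3440. Fibroblast markers summed to 1018 to 1579 with 4 or 5 of 7 above the floor, endothelial markers to 690.2 to 973.7 with 1 or 2 of 7, and immune markers to 344.7 to 555.3 with 1 to 3 of 5. Of the endothelial genes, PECAM1 read 472.6 to 680.9, KDR exceeded the floor with vector (201.2) and YAP-WT (148.0), and CDH5, VWF, TEK, CLDN5 and EMCN were below it on all 4 arrays. Nerve and glia markers summed to 2042 to 12245 with 4 or 5 of 7 above the floor, most of it MAP2, which read 11540 on the vector array, 9067 on YAP-WT, 1220 on YAP-S94A and 3548 on YAP-W1W2. SNAP25 (221.7 to 322.2), SYT1 (259.0 to 406.4) and ELAVL4 (74.1 to 105.6) were above the floor on all 4 arrays, SOX10 on 3, and GFAP and S100B on none. For YAP1 itself, log2 differences between each YAP array and vector ran from -0.24 to 0.60 over its 3 probe sets, and whether these read the introduced form is not known here. Of the spike-in controls, CreX differed from vector by 0.02, -0.04 and -0.22 (log2) on the 3 YAP arrays in turn. BioB differed from vector by -0.47 (log2) on YAP-WT, -0.83 on YAP-S94A and -1.28 on YAP-W1W2. In the same array order bioC differed by -0.30, -0.75 and -1.20, and bioD by -0.34, -0.79 and -0.96. The part of these differences in the results below was not tested.

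Both Slit ligands, by their brightest probe sets, were higher on every YAP array than on the vector array. SLIT2, by probe set 230130_at, read 181.3 on the vector array, 2071 on YAP-WT, 497.6 on YAP-S94A and 1517 on YAP-W1W2. It was thus 11.4-fold above vector in YAP-WT, 8.37-fold in YAP-W1W2 and 2.74-fold in YAP-S94A. Vector was lowest, YAP-S94A intermediate, and YAP-WT and YAP-W1W2 highest and 1.37-fold apart. YAP-S94A lay 4.16-fold below YAP-WT and 3.05-fold below YAP-W1W2. Whether more cells carried the transcript or each cell carried more cannot be told apart for any gene here.

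The other probe sets of SLIT2 gave the same order of the arrays. Probe set 209897_s_at read 152.4, 1124, 297.5 and 839.0 in the same array order, and 228850_s_at read 27.5, 616.2, 127.1 and 403.0. In YAP-S94A against vector they stood at 1.95-fold and at least 1.74-fold, so that 1 of the 3 probe sets passed 2-fold there. In YAP-S94A against YAP-WT all 3 passed it, at 3.78-fold to 4.85-fold lower.

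SLIT3, by probe set 203812_at, read 83.5 on the vector array, 422.2 on YAP-WT, 286.8 on YAP-S94A and 369.2 on YAP-W1W2. The 3 YAP arrays lay together, within 1.47-fold of each other, and were 5.06-fold, 3.43-fold and 4.42-fold above vector. The vector value was close to the floor, which leaves little room for a lower reading. A dimmer probe set, 203813_s_at, read 14.9, 104.6, 15.7 and 83.0, above the floor in YAP-WT and YAP-W1W2 and below it in vector and YAP-S94A. Probe set 216216_at was below the floor on every array. The pair of SLIT3 probe sets that exceeded the floor thus placed YAP-S94A differently, 203812_at with the other YAP arrays and 203813_s_at with vector.

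ROBO1, a receptor for Slits, did not follow SLIT2 and SLIT3. Its single probe set read 1666 on the vector array, 1418 on YAP-WT, 1186 on YAP-S94A and 634.7 on YAP-W1W2. YAP-W1W2 was lowest, 2.62-fold below vector and 2.23-fold below YAP-WT. The other 3 arrays lay within 1.41-fold of each other, and YAP-W1W2 was 1.87-fold below YAP-S94A.

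**Figure D1:**
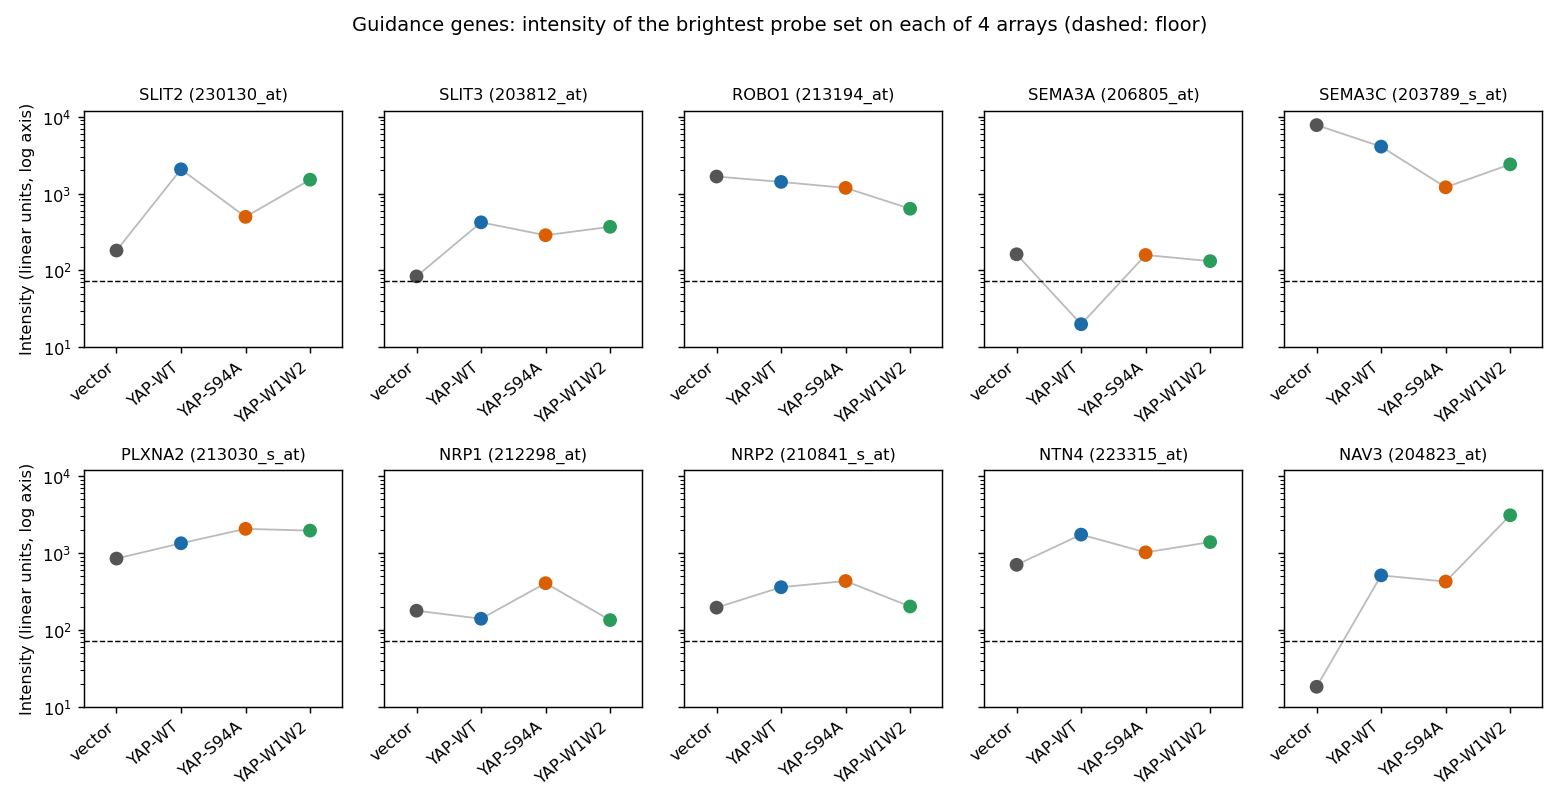
Intensity of the brightest probe set of each member (linear units on a log axis, 1 point per array, grey lines join the arrays of a probe set, dashed line the floor of 72.9). SLIT2 runs from 181.3 in vector to 2071 in YAP-WT, SEMA3C from 7781 in vector to 1207 in YAP-S94A, and NAV3 from below the floor in vector to 3112 in YAP-W1W2; levels of different genes are not comparable.

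SEMA3A and SEMA3C were not higher than vector by 2-fold on any YAP array. SEMA3C, a guidance cue also known in epithelial and vascular development, read 7781 on the vector array, 4086 on YAP-WT, 1207 on YAP-S94A and 2400 on YAP-W1W2 by probe set 203789_s_at. The order was vector, YAP-WT, YAP-W1W2 and YAP-S94A from high to low, with 1.90-fold, 1.70-fold and 1.99-fold between neighbours, each under 2-fold. Against vector it was 6.45-fold lower in YAP-S94A and 3.24-fold lower in YAP-W1W2. Probe set 203788_s_at read 1436, 747.7, 249.3 and 426.8, in the same order, with 5.76-fold and 3.37-fold lower values for those comparisons. YAP-S94A lay below YAP-WT by 3.39-fold and 3.00-fold in the pair of probe sets.

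SEMA3A, whose protein collapses growth cones, was dim. Probe set 206805_at read 162.0 on the vector array, 19.9 on YAP-WT, 158.6 on YAP-S94A and 131.9 on YAP-W1W2. Only the YAP-WT array was below the floor, and it was at least 2.22-fold below vector and at least 2.18-fold below YAP-S94A. The other 3 arrays lay within 1.23-fold of each other. The other probe sets of SEMA3A, 244163_at and 244849_at, were below the floor on all 4 arrays and give no second reading.

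The neuropilins shared a high reading in YAP-S94A. NRP1, which binds SEMA3A and VEGF-A, read 178.1 on the vector array, 140.0 on YAP-WT, 406.5 on YAP-S94A and 134.3 on YAP-W1W2 by probe set 212298_at. YAP-S94A stood apart, 2.28-fold above vector, 2.90-fold above YAP-WT and 3.03-fold above YAP-W1W2, and the other arrays lay within 1.33-fold of each other. The other 3 probe sets of NRP1 were below the floor on every array.

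NRP2, which binds SEMA3C, SEMA3F and VEGF-C, had 11 probe sets, 10 of them above the floor on some array. The brightest, 210841_s_at, read 195.2 on the vector array, 360.3 on YAP-WT, 433.7 on YAP-S94A and 202.1 on YAP-W1W2. By it NRP2 stood above vector by 2.22-fold in YAP-S94A, 1.85-fold in YAP-WT and 1.04-fold in YAP-W1W2. YAP-S94A was the highest array in 7 of the 10 probe sets. For YAP-S94A over YAP-WT, 9 of 10 were higher and 5 of these passed 2-fold, at 2.49-fold to 3.08-fold, although the brightest stood at 1.20-fold. For YAP-W1W2 over YAP-S94A, 8 of 10 were lower and 7 passed 2-fold, with log2 differences from -2.21 to 0.75 over the 10.

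The probe sets of NRP2 disagreed elsewhere. For YAP-WT over vector 3 were higher, as the brightest was, and the log2 differences ran from -1.17 to 0.88. Probe set 223510_at, for example, read 171.5 in vector and 76.3 in YAP-WT, 2.25-fold lower. Probe set 219367_s_at read 362.4, 320.9, 336.6 and 40.5 in the array order used above, so that YAP-W1W2 alone was below the floor and at least 4.97-fold below vector. Probe set 1555468_at went the other way, with 56.6, 84.3, 103.2 and 174.0 and at least 2.39-fold more in YAP-W1W2 than in vector. NRP2 has secreted and membrane-bound transcript forms, and which form each probe set reads is not known here.

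PLXNA2, a type A plexin that pairs with neuropilins, gave different patterns by probe set. The brightest, 213030_s_at, read 849.9 on the vector array, 1345 on YAP-WT, 2072 on YAP-S94A and 1966 on YAP-W1W2, which is 2.44-fold and 2.31-fold above vector in YAP-S94A and YAP-W1W2. Probe set 227032_at read 902.8, 862.0, 773.6 and 708.3, with every YAP array slightly below vector and none by 2-fold. Probe set 207290_at read 235.6, 362.9, 261.6 and 158.3, highest in YAP-WT and 2.29-fold lower in YAP-W1W2 than in YAP-WT. The higher PLXNA2 values in YAP-S94A and YAP-W1W2 therefore rest on 1 of 3 probe sets.

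**Figure D2:**
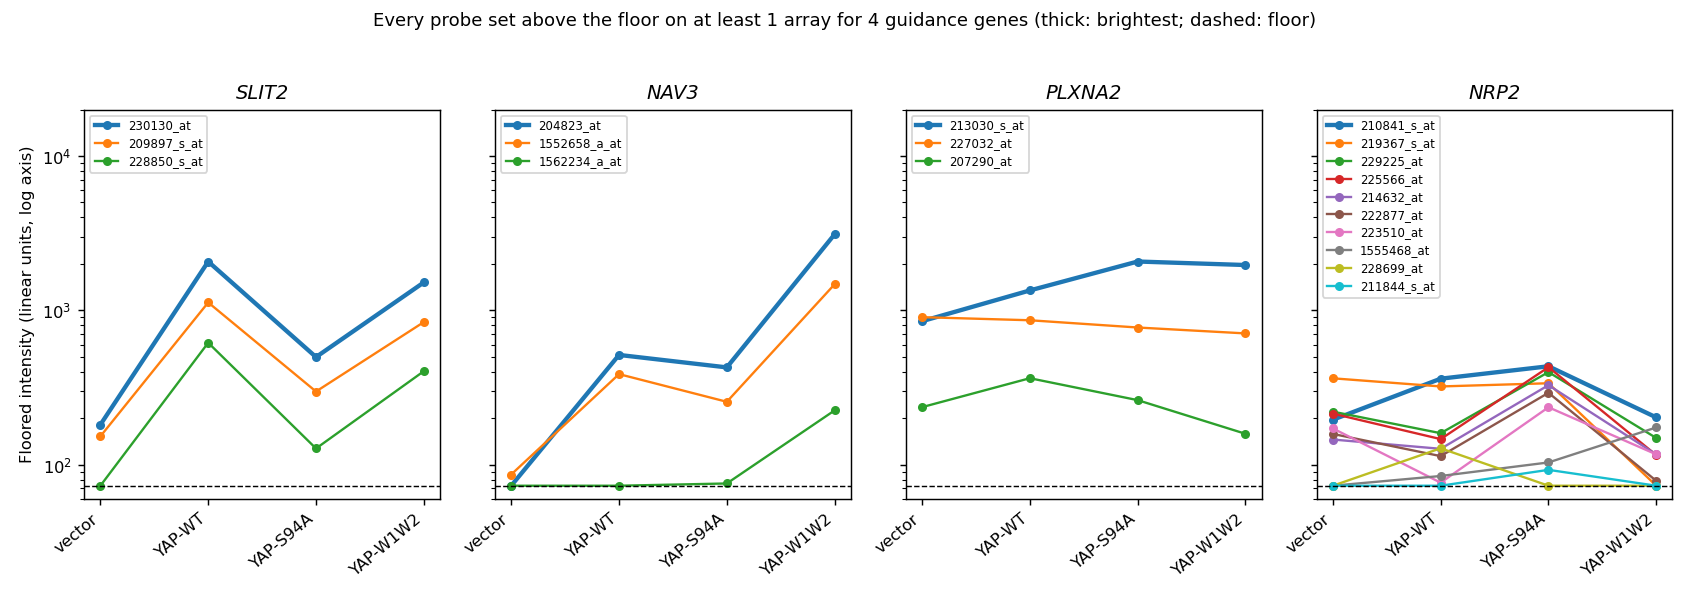
Floored intensity (linear units, log axis) on the 4 arrays for each probe set of SLIT2, NAV3, PLXNA2 and NRP2 that exceeded the floor of 72.9 (dashed) on at least 1 array; each line is a probe set and the thick line is the brightest. The 3 lines of SLIT2 peak in YAP-WT and the 3 of NAV3 in YAP-W1W2, while the 3 of PLXNA2 differ in shape and 7 of 10 for NRP2 peak in YAP-S94A.

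NTN4 followed the order of SLIT2 with smaller differences. Its only probe set, 223315_at, read 704.7 on the vector array, 1744 on YAP-WT, 1024 on YAP-S94A and 1393 on YAP-W1W2. YAP-WT was highest and 2.47-fold above vector. YAP-W1W2 was 1.98-fold and YAP-S94A 1.45-fold above vector, both under 2-fold, and YAP-S94A was 1.70-fold below YAP-WT.

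NAV3 had the widest range of the 10. Probe set 204823_at read 18.2 on the vector array, 513.7 on YAP-WT, 426.5 on YAP-S94A and 3112 on YAP-W1W2. Vector was below the floor, so NAV3 was at least 7.05-fold higher on YAP-WT, 5.85-fold on YAP-S94A and 42.7-fold on YAP-W1W2, bounds that the floor sets. YAP-WT and YAP-S94A were 1.20-fold apart, and YAP-W1W2 lay 6.06-fold above the former and 7.30-fold above the latter. Probe set 1552658_a_at, with a vector value above the floor, read 86.2, 385.7, 255.2 and 1476, which is 4.47-fold, 2.96-fold and 17.1-fold above vector. Probe set 1562234_a_at exceeded the floor in YAP-S94A (75.4) and YAP-W1W2 (224.5) only, and the other probe sets of NAV3 were below the floor throughout. NAV3 is the member for which the WW-domain mutant stood highest above the other forms.

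**Figure D3:**
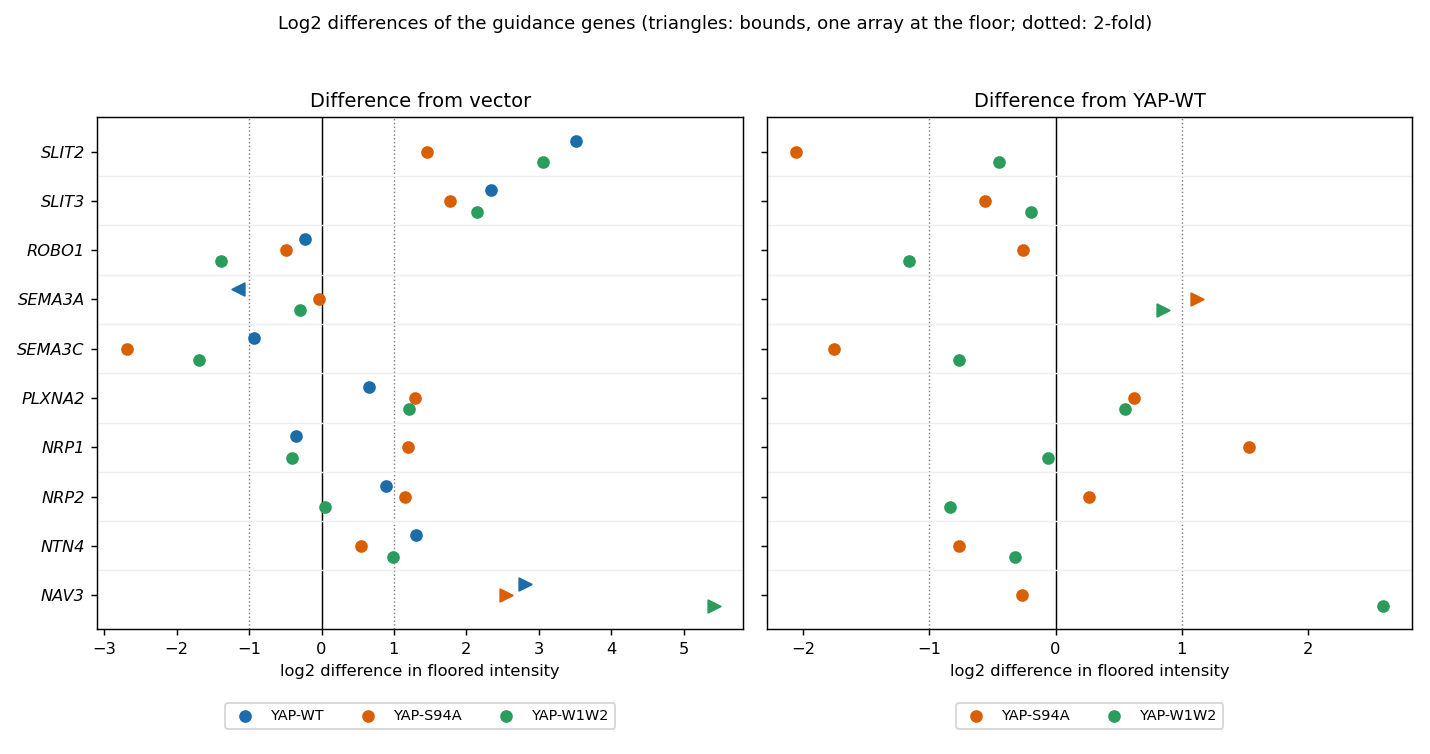
Log2 difference in floored intensity of each member, by its brightest probe set, for the 3 YAP arrays against vector (left) and the mutants against YAP-WT (right); triangles are bounds with 1 array at the floor, dotted lines mark 2-fold. SLIT2, SLIT3 and NAV3 lie beyond 2-fold above vector on all 3 YAP arrays, and SEMA3C lies at -2.69 in YAP-S94A and -1.70 in YAP-W1W2.

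Counted over all 10 members by the brightest probe set, the comparison of YAP-WT with vector had 4 past 2-fold upward (SLIT2, SLIT3, NTN4 and NAV3) and 1 downward (SEMA3A). Over all 19775 genes 6.43% were that much higher and 4.22% lower, and of the 12759 measured genes 14.1% differed by 2-fold in either direction. In YAP-S94A against vector 6 members were higher (SLIT2, SLIT3, PLXNA2, NRP1, NRP2 and NAV3) and 1 lower (SEMA3C), with 7.18% and 5.30% of all genes and 16.8% of measured genes. That count fell to 1 higher and 1 lower when all probe sets of a gene were averaged, where 1648 of 19775 genes passed in either direction. Without _s_at and _x_at probe sets it was 4 higher and 0 lower of 9 members, beside 2001 of 17098 genes in either direction. SEMA3C has only _s_at probe sets, so it was left out there and was not read as unchanged. In YAP-W1W2 against vector 4 were higher (SLIT2, SLIT3, PLXNA2 and NAV3) and 2 lower (ROBO1 and SEMA3C), with 8.47% and 6.51% of all genes and 19.8% of measured genes. The median log2 difference of the members was 0.77, 1.17 and 0.52 in the 3 comparisons, where that of measured genes was 0.14, 0.14 and 0.10 and that of all genes 0.00. These comparisons share the vector array, and the members were chosen with results of these arrays known, so their counts describe them and do not show that guidance genes differ more than others.

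Comparisons among the YAP forms do not use the vector array. In YAP-S94A against YAP-WT, which asks what differs when the TEAD-binding region is changed, SEMA3A and NRP1 were at least 2-fold higher and SLIT2 and SEMA3C lower. The background was 3.84% higher and 4.52% lower over all genes, and 11.3% of measured genes in either direction. In YAP-W1W2 against YAP-WT, which asks the same of the WW domains, NAV3 was higher and ROBO1 lower, with 3.43% and 4.14% of all genes and 9.50% of measured genes. In YAP-W1W2 against YAP-S94A, SLIT2 and NAV3 were higher and NRP1 and NRP2 lower, with 4.08% and 3.45% of all genes and 9.43% of measured genes. The member medians were -0.26, -0.26 and 0.14.

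Centring on the median measured gene, a setting added after the data were seen, changed the split of higher and lower genes. In YAP-WT against vector the share of higher genes among all changed genes went from 60.4% to 46.7%, in YAP-S94A against vector from 57.5% to 43.1%, and in YAP-W1W2 against vector from 56.5% to 46.9%. In YAP-W1W2 against YAP-S94A it went from 54.2% to 63.0%. Among the members, SEMA3C then passed 2-fold in YAP-WT against vector, at -1.07 (log2), for 4 higher and 2 lower. It also passed in YAP-W1W2 against YAP-S94A, at 1.07, for 3 higher and 2 lower. Both SEMA3C differences passed under quantile normalization too.

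As a gauge of error within an array, 5954 genes had a second measured probe set. The log2 differences of their 2 brightest probe sets were apart by a median of 0.28 to 0.41 over the 6 comparisons, and 8.31% to 15.6% of these genes had a gap of 1 or more. The differences of ROBO1, SEMA3A, NTN4 and NRP1 each rest on 1 probe set above the floor and have no second reading to set against that gap. The gap mixes probe error with differences between transcript forms and does not stand in for replicate cultures.

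**Figure D4:**
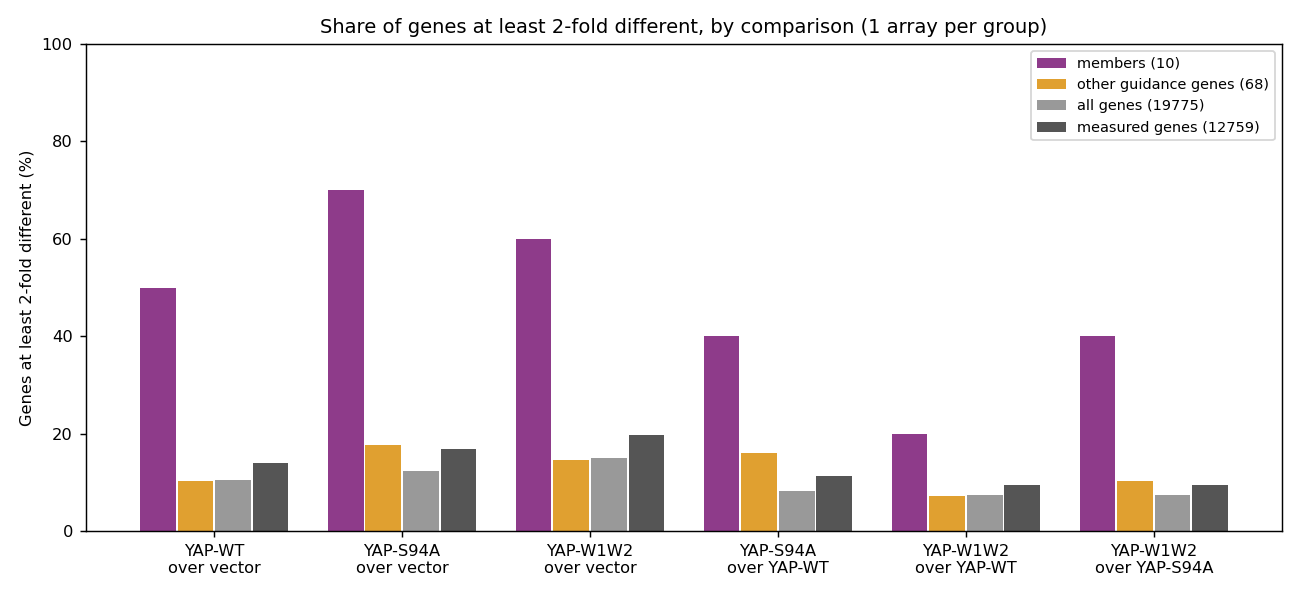
Percent of genes at least 2-fold different in either direction in each of the 6 comparisons (bars from 0, 1 array per group) for the 10 members, the 68 other guidance genes, all 19775 genes and the 12759 measured genes. Measured genes stand at 9.43% to 19.8%; the members were chosen with results known, so the height of their bars is a description.

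The rest of the guidance system was read from a list of 68 other genes on the array, of which 48 were measured, and counts are over the 68 while the genes named are measured ones. It holds the remaining Slits, Robos, semaphorins, plexins, netrins and their receptors, with navigators, collapsin response mediators, plexin effectors and VEGF partners of neuropilins. In YAP-WT against vector 5 of 68 passed 2-fold upward and 2 downward, beside 6.43% and 4.22% of all genes. The median log2 difference of the 68 was 0.12. For this list the shares over all genes are given beside each count, and no difference from them was tested. The semaphorin SEMA5B was at least 5.95-fold higher, with 60.7 in vector and 433.9 in YAP-WT. The membrane-anchored semaphorins SEMA7A and SEMA5A were 2.84-fold and 2.34-fold higher, and the netrin-G1 gene NTNG1 at least 2.06-fold. The other measured probe sets of SEMA5A stood at 0.79 and 1.05 (log2). SEMA5B and NTNG1 were below the floor in vector and count as measured only through YAP arrays, so the filter favours naming such gains. SEMA6D was 2.31-fold lower in its brightest probe set, and its other measured probe set stood at -0.49 (log2). The plexin PLXNB1, a receptor for SEMA4D, stood 2.49-fold below vector in its brightest probe set, while its other measured probe set stood at 0.30 (log2).

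In YAP-S94A against vector 5 of the 68 passed upward and 7 downward around a median of 0.00, beside 7.18% and 5.30% of all genes. SEMA5B was at least 5.08-fold higher, from 60.7 to 370.4. The actin-oxidizing plexin effector MICAL2 stood 3.10-fold above vector in its brightest probe set, though another stood at -0.37 (log2). SEMA4A and SEMA7A were 2.25-fold and 2.01-fold higher, and the other measured probe set of SEMA7A stood at 0.85 (log2). FLRT3, a membrane protein that binds Robo1 and UNC5 receptors, was 4.12-fold lower, from 4746 to 1151. SEMA6D was at least 5.06-fold lower in its brightest probe set, and its other measured probe set stood at -0.87 (log2). SEMA4D was 2.95-fold and PLXNB3 at least 2.34-fold lower.

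In YAP-W1W2 against vector 4 passed upward and 6 downward, again around a median of 0.00, beside 8.47% and 6.51% of all genes. SEMA5B was at least 4.77-fold higher, so that it was above the floor on the 3 YAP arrays and below it in vector. NTNG1 was at least 2.43-fold and ROBO4, the endothelial Robo, 2.19-fold higher. FARP1, listed as a plexin effector, was 2.58-fold lower, SRGAP3, a Slit-Robo GTPase-activating protein, 2.33-fold, and FLRT3 2.27-fold. The 3 other measured probe sets of FARP1 ran from -1.13 to -0.31 (log2). In its brightest probe set SEMA6D was at least 5.06-fold below vector, and its other measured probe set stood at 0.82 (log2).

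Among the YAP forms, 3 of the 68 were higher and 8 lower in YAP-S94A than in YAP-WT, beside 3.84% and 4.52% of all genes. MICAL2 was 2.56-fold and VEGFC, a ligand for NRP2, 2.39-fold higher in YAP-S94A. The repulsive guidance molecule RGMA was 3.76-fold lower, SEMA4D 3.35-fold, FLRT3 3.07-fold and SEMA5A 2.60-fold. The other measured probe sets of SEMA5A stood at -1.73 and -0.66 (log2). In YAP-W1W2 against YAP-WT, where 3.43% of all genes were higher and 4.14% lower, 1 of the 68 was higher (ROBO4, 2.01-fold) and 4 lower. The lower ones included DPYSL2, a collapsin response mediator that acts downstream of semaphorins, at 2.19-fold and SEMA3F at 2.12-fold, of which the other measured probe sets of SEMA3F stood at -0.07 (log2). The brightest probe set of SEMA6D was at least 2.19-fold lower there, and another stood at 1.31 (log2). In YAP-W1W2 against YAP-S94A, where 4.08% of all genes were higher and 3.45% lower, 4 of the 68 were higher and 3 lower. The measured genes among them were RGMA (2.93-fold higher), SEMA4D (2.31-fold higher), PLXNB3 (at least 2.09-fold higher), SEMA4B (2.86-fold lower) and VEGFC (2.02-fold lower).

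The genes with the pattern most like each of the 3 widest-ranging members were found by the distance between log2 profiles over the 4 arrays, after each gene's own mean was removed, among 12758 measured genes. For SLIT2 the nearest were TGM2, a transglutaminase, at a distance of 0.43 (log2), the thrombospondin THBS1 at 0.46, the collagen COL8A1 at 0.51 and the connexin GJA5 at 0.52. TGM2, for example, read 128.5 on the vector array, 1316 on YAP-WT, 474.5 on YAP-S94A and 1209 on YAP-W1W2. For NAV3 the nearest were PTGS2, which encodes cyclooxygenase-2, at 0.53, DAW1 at 0.84, SFTA1P at 0.99 and the cystatin CST6 at 1.05. PTGS2 read 180.7, 1172, 727.8 and 4991 in that array order, highest in YAP-W1W2 as NAV3 was. The NAV3 distances use its vector value raised to the floor, so they and the choice of genes depend on that floor. For SEMA3C the nearest were YPEL2 at 0.09, the sulfotransferase CHST2 at 0.28, the transcriptional repressor BCL6 at 0.30 and C11orf54 at 0.33. YPEL2 read 620.2, 300.4, 93.5 and 189.2, lowest in YAP-S94A. With 4 arrays such likeness is a description of these arrays.

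Among the members themselves the closest profiles were those of PLXNA2 and NTN4, at a distance of 1.00, SLIT3 and NTN4 at 1.00, and NRP1 and NRP2 at 1.02. The distance between SLIT2 and SLIT3 was 1.24. A short distance does not mean the same array order, because genes with narrow ranges lie near each other. PLXNA2, by its brightest probe set, was highest in YAP-S94A and NTN4 in YAP-WT, with log2 ranges of 1.29 and 1.31. NTN4 had the array order of SLIT2 but lay 1.81 from it.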

How the data were processed

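Total RNA was extracted with Trizol and biotin-labelled, per the labels' protocols, and 1 array per group was hybridized. The deposited table holds linear intensity values per probe set, made by the authors with GCOS, per the submitters' processing notes; the GCOS version and scaling target were not stated. Probe sets were named from GEO's platform annotation: 41091 that are not controls had 1 symbol, 1801 several and 11721 none. The trimmed means of the 4 arrays, without the highest and lowest 2%, differed by a factor of 1.098, within the 10% allowed, so the values were not rescaled. Values were raised to the floor, log2 was taken and genes past 2-fold were counted, with Python 3.11.15 and pandas 2.3.3; the counting was checked on simulated data. No test was possible, and precision is limited by the number of arrays.

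Members and lists were chosen with earlier results of these data known. Genes named beside the members were the up to 4 highest and 4 lowest measured genes of the other guidance list past 2-fold, and the 4 nearest profiles to 3 members. SLIT1 was named outside that rule, as a Slit ligand that is not a member. Alternatives covered scaling, floor, probe set choice and the filter on dim genes.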

Additional observations from a re-analysis of the deposited data

How the results depend on the processing

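Of 414 member differences recomputed under the 6 planned settings and the added centring, 389 stayed on their side of 2-fold and, where past it, kept their direction, 23 crossed it, and 2 reversed. Of 102 readings from single other probe sets, 68 stayed, 29 crossed and 5 reversed by the same rule. The reversals were PLXNA2 over vector in YAP-S94A (-0.22 by 227032_at, which also represents it without _s_at and _x_at probe sets) and in YAP-W1W2 (-0.35 by 227032_at, again its value without those probe sets, and -0.57 by 207290_at), NRP2 in YAP-S94A over vector (-0.11 by 219367_s_at) and NRP2 in YAP-W1W2 over YAP-S94A (0.75 by 1555468_at). The cause was not tested.

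Averaging all probe sets of a gene, dim ones included, lowered the number of members past 2-fold. In YAP-WT over vector 2 were left (2 higher, 0 lower), and in YAP-S94A over vector 2 (1 higher, 1 lower). In YAP-S94A over YAP-WT 2 were left (0 higher, 2 lower), and in YAP-W1W2 over YAP-S94A 2 (2 higher, 0 lower). Without _s_at and _x_at probe sets, which leaves no probe set for SEMA3C, 4 of 9 members passed in YAP-S94A over vector, as did 2001 of 17098 genes. Averaging left 1648 of 19775 genes there. Without those probe sets YAP-S94A over YAP-WT had 3 members higher and 1 lower, where the main setting had 2 and 2. For the other guidance genes averaging gave 4, 5, 5, 6 and 3 in the first 5 comparisons (the order is each form over vector, then YAP-S94A over YAP-WT and YAP-W1W2 over YAP-WT). The floor at the 20th percentile gave 14, 18 and 11 in YAP-WT over vector, YAP-S94A over YAP-WT and YAP-W1W2 over YAP-WT, and a pseudocount of 32 gave 8 in the last. For all genes that floor gave 3977, 4376, 4942, 3412, 3315 and 3327 over the 6 comparisons, and averaging gave 1339 in YAP-WT over vector, 1928 in YAP-W1W2 over vector, 1021 in YAP-S94A over YAP-WT, 869 in YAP-W1W2 over YAP-WT and 924 in YAP-W1W2 over YAP-S94A. The split of the other guidance list moved in YAP-WT over vector from 5 higher and 2 lower to 3 and 3 with centring on the median measured gene and to 4 and 3 with quantile normalization, in YAP-W1W2 over YAP-S94A from 4 and 3 to 5 and 2 with both but to 1 and 4 with averaging, in YAP-S94A over vector from 5 and 7 to 6 and 5 without _s_at and _x_at probe sets and to 9 and 8 with the lower floor, and in YAP-W1W2 over YAP-WT from 1 and 4 to 0 and 5 with median centring. No array could be left out and no paired analysis was possible because each group has 1 array. Signal near the floor limits SEMA3A, SLIT3 and the dim probe sets of NRP1 and NAV3.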
